A study of Mus musculus with 4 samples.

Results

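The genes described here are 10 transcription factor genes, the activator protein 1 (AP-1) factors Fos, Fosb, Fosl1, Fosl2, Jun, Junb and Jund together with Atf3, Batf3 and Jdp2. They were found by gene name among 56493 genes of a deposited count table, and 9 of the 10 passed a filter on low counts that kept 19638 genes. Batf3 did not pass. The genes were selected on measured values in part, since it was known from these libraries that Jun was lower with the CrAT vector and that early response genes summed highest in MCS replicate 1. The values of the 10 genes in that comparison are therefore a description.

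The labels describe RNA from wild-type mouse retina, of cells named RGC (retinal ganglion cells, which send the axons of the optic nerve) and isolated by fluorescence-activated sorting after an optic nerve crush. The first group is titled AAV2-CrAT, an adeno-associated virus injected into the vitreous a month before the crush to raise carnitine acetyltransferase. The second group is titled AAV2-MCS, which the labels do not spell out, so both groups carry a vector and an injury. All 4 titles also share the tag NCd8, whose meaning is not stated. Each group has 2 libraries, replicates 1 and 2, of 24494253 to 27097438 counts, and values below are given in that order. Neither the vector's promoter nor the age of the mice is stated in what was used here, nor that replicates are separate animals. A p-value therefore sets the difference between the groups only against the spread of these libraries, which may be technical. Crat, the gene of the vector, was 72.5 and 49.9 CPM with CrAT and 38.3 and 47.7 CPM with MCS (CPM is the count relative to the library's total, scaled by TMM), without overlap but with CrAT replicate 2 close to MCS replicate 2, and its log2 fold change was 0.51 (SE 0.33).

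AP-1 is a family of dimers joined by a leucine zipper, in which a Jun protein pairs with a Fos protein or with another Jun, and the dimer binds DNA at the TPA response element or at the related cyclic AMP response element. FOS cannot form stable dimers with itself and needs a Jun partner. ATF3 pairs with itself or with Jun proteins, and as a pair with itself it represses transcription. In injured neurons the kinase DLK and the JNK kinases below it phosphorylate JUN, and Jun and Atf3 are both known as genes that ganglion cells switch on after their axons are cut. Fos, Fosb, Jun, Junb, Atf3 and Egr1 are also early response genes that many cell types raise soon after a stimulus.

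The marker genes of the labelled cells were low in sum beside those of rods. Over 15 ganglion cell markers the summed level was 94.6 and 207 CPM with CrAT against 72.8 and 167 CPM with MCS. The defining factor Pou4f1 had 0 and 20 counts in CrAT and 1 and 15 in MCS, and its relative Pou4f2 had counts in MCS replicate 2 only, 6 of them. Others of the 15 were higher, among them Nefl at 21.4 to 71.8 CPM, Thy1 at 11.0 to 30.1 CPM and Nefm at 6.88 to 34.2 CPM. Summed rod markers were 27882 to 51858 CPM, and each of the 12 rod markers had counts in all 4 libraries. Markers of endothelial cells and pericytes were mixed. Cdh5 was at 0 counts in all 4 libraries, and Cldn5, Pecam1 and Kcnj8 reached at most 0.628, 1.55 and 0.419 CPM. Rgs5 was 2.93 to 5.28 CPM. The receptors Kdr and Flt1 were 205 to 593 CPM and 51.0 to 244 CPM, and the pericyte receptor Pdgfrb was 26.7 to 63.2 CPM. Of the pigment epithelium markers, Rpe65 was at 0 counts in all 4 libraries, while Ttr was 6.76 to 15.4 CPM and Best1 and Rgr had counts in each. Flt1 was 79.2 and 51.0 CPM with CrAT against 244 and 206 CPM with MCS and was lower with CrAT in DESeq2 (adjusted p = 0.00324) but not in edgeR. The AP-1 transcripts below thus come from a mixture in which the share of each cell type is not known, and fewer cells of a type and less RNA per cell cannot be told apart.

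Fos was by far the most abundant of the 10 transcripts per length in all 4 libraries. In deposited FPKM, a level relative to exon length and library size, Fos, the founding member of its family, was 439 and 306 in CrAT replicates 1 and 2, and 560 and 282 in MCS replicates 1 and 2. Junb and Jun followed in that order in each library. Junb was 95.9 and 90.7 FPKM in CrAT and 245 and 179 FPKM in MCS. Jun was 86.2 and 76.8 FPKM in CrAT and 241 and 111 FPKM in MCS. The order of Junb and Jun was the same each time, but they lay within 1.02-fold of each other in MCS replicate 1 and were 1.62-fold apart in MCS replicate 2. Atf3, the stress-induced repressor, was 38.1 and 29.4 FPKM in CrAT and 30.7 and 9.72 FPKM in MCS. It came next in 3 libraries and stood below Jund in MCS replicate 2, where Jund was 14.9 FPKM. The remaining genes were low. Jdp2, Fosl1 and Fosb had mean levels of 3.73, 2.20 and 1.78 FPKM and changed places between libraries, and Fosl2 at 0.395 to 0.734 FPKM was lower still in each. Batf3, a factor known from dendritic cells, was the lowest, with 2 and 0 counts in CrAT and 10 and 6 in MCS, where a count of 0 allows up to 0.112 CPM before TMM scaling. Such floors cover counting error only, since amplified reads are not independent molecules.

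**Figure D1:**
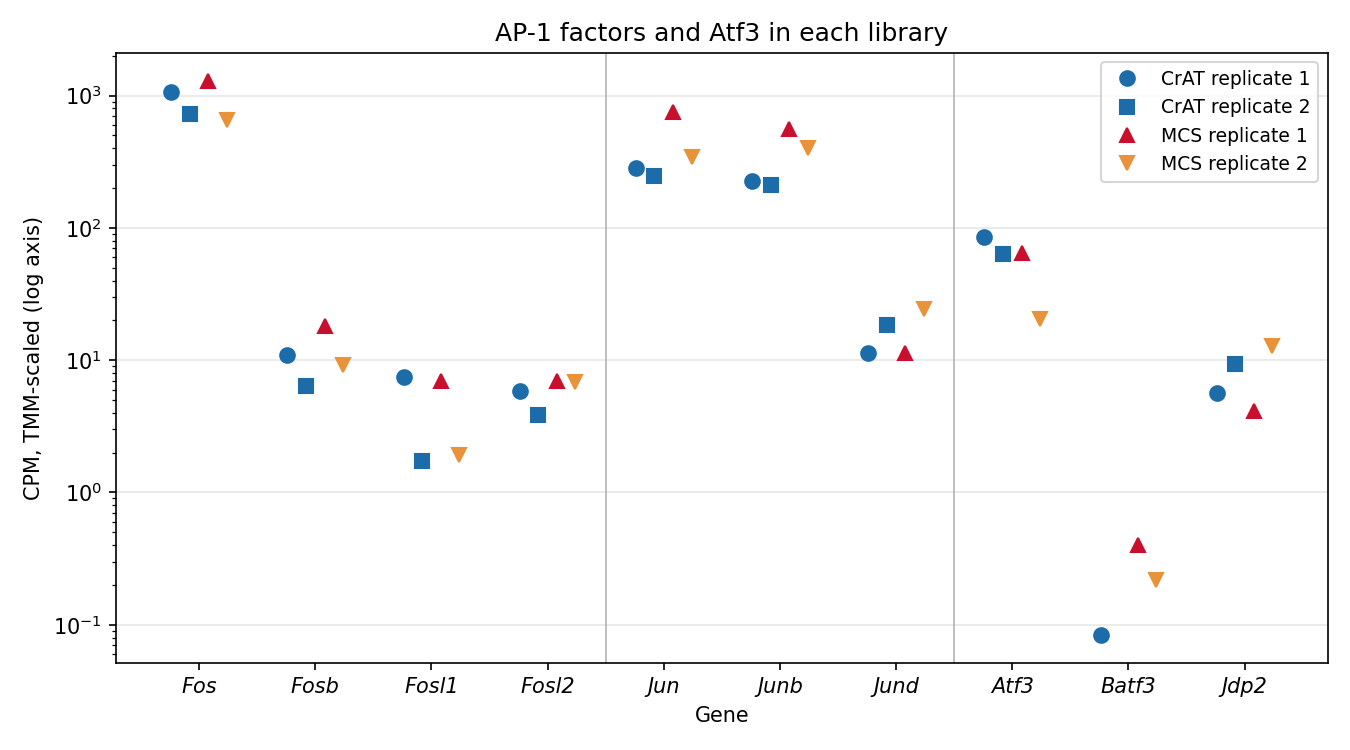
Level of each of the 10 genes (horizontal axis) in CPM on a log axis (vertical axis), with a symbol for each of the 4 libraries and no error bars. Vertical lines part the Fos family, the Jun family and the other 3 genes. The count of 0 of Batf3 in CrAT replicate 2 cannot be drawn. Jun and Junb are lower in both CrAT libraries, and Atf3 is lowest in MCS replicate 2.

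Jun and Junb parted the groups most. Junb was 228 and 210 CPM with CrAT against 556 and 405 CPM with MCS. The mean with CrAT was 219 ± 12.4 CPM (SD, n = 2) and that with MCS 480.3 ± 106 CPM (SD, n = 2). The groups did not overlap, and the gap to the nearer MCS library was wider than the spread within either group. JUNB is a Jun protein that can restrain the activity of JUN. Its log2 fold change, CrAT over MCS, was -1.13 (SE 0.31), which is 2.19-fold higher in MCS, and it ran from -1.34 to -0.89 as each library was left out in turn. Jun was 284 and 247 CPM with CrAT against 756 and 346.2 CPM with MCS. With CrAT the mean was 265 ± 26.1 CPM (SD, n = 2) and with MCS 551 ± 289.8 CPM (SD, n = 2). There was again no overlap, but MCS replicate 1 stood 2.18-fold above MCS replicate 2. The log2 fold change of Jun was -1.055 (SE 0.43) and was -0.38 without MCS replicate 1. Jund, the Jun gene that cells express at rest, behaved otherwise. It was 11.4 and 18.3 CPM with CrAT against 11.3 and 24.4 CPM with MCS, and the groups overlapped, with a log2 fold change of -0.26 (SE 0.50) that was 0.40 without MCS replicate 2.

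None of the 9 genes passed an adjusted p of 0.05 over all genes in edgeR's quasi-likelihood test, where the adjusted p was 1 for each. The same test called 0 of 19638 genes, or 0%. At an unadjusted p under 0.05 there were 2 of the 9, Jun and Junb, beside 815 of all genes, or 4.15%. DESeq2 called none of the 9, with adjusted p = 0.218 for Junb and 0.776 for Jun, and 54 of all genes, or 0.275%. Both CrAT libraries were below both MCS libraries for 3 of the 9, Jun, Junb and Fosl2, and 16.6% of all genes had this order. The opposite order was found for none of the 9 and for 15.0% of all genes. Since this comparison had a part in the choice of the genes, nothing is read from these counts. For a single gene 2 libraries against 2 cannot give a two-sided permutation p below 0.333.

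**Figure D2:**
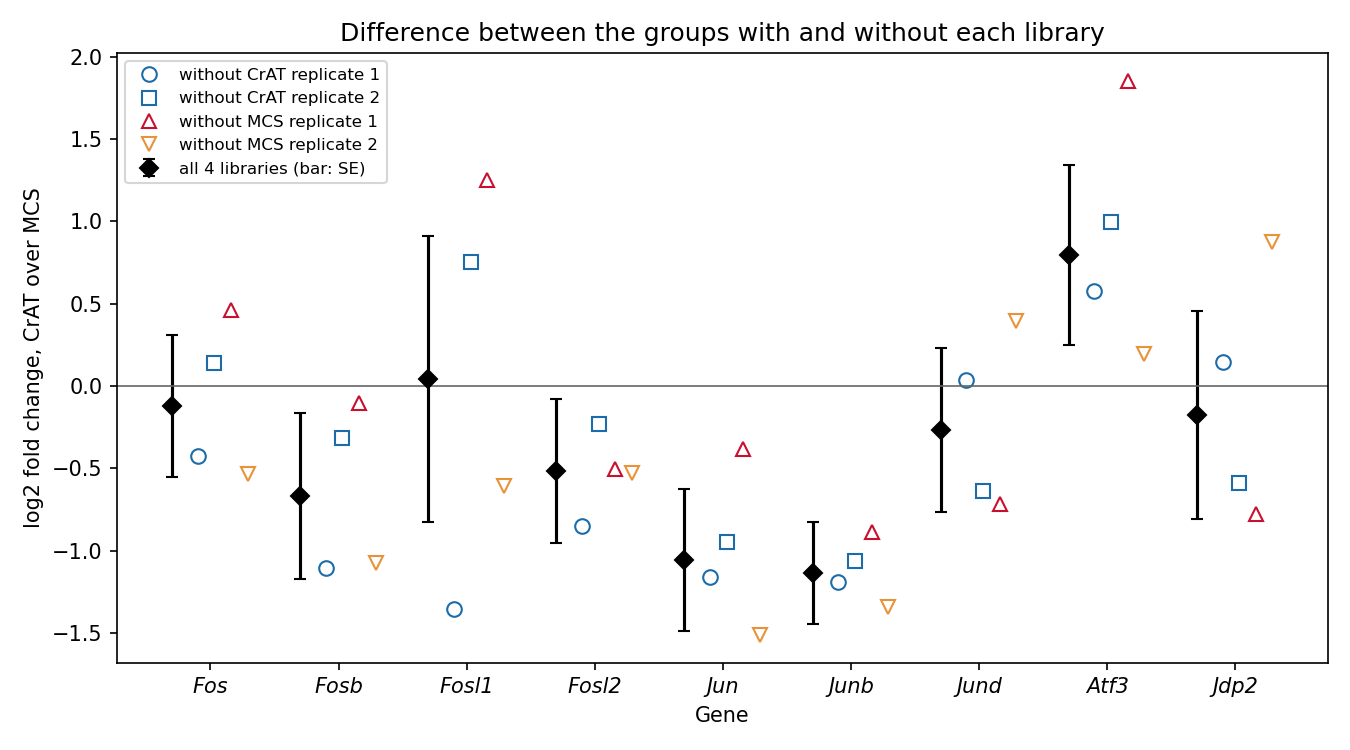
The log2 fold change of each gene tested, CrAT over MCS (vertical axis), from edgeR with all 4 libraries (black, bars show the SE) and with each library left out in turn (open symbols). Junb stays between -1.34 and -0.89, while Atf3 runs from 0.19 without MCS replicate 2 to 1.86 without MCS replicate 1.

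Markers of Mueller glia, which span the retina, were also lower with CrAT. All 12 markers tested had a negative log2 fold change, with a median of -0.70 and no adjusted p under 0.05, and 8 of them had both CrAT libraries below both MCS libraries. Over all genes tested 49.4% had a negative log2 fold change and 16.6% had that order. The summed level of the Mueller glia markers was 15569 and 12697 CPM with CrAT against 23253 and 20960 CPM with MCS. No marker of the list was at 0 in any library. Of 6 astrocyte markers 4 were tested and all 4 were lower with CrAT, with sums of 258 and 214 CPM with CrAT against 405 and 317 CPM with MCS, while their defining factor Pax2 had 1 and 0 counts in each group. The part of these cells in the difference of Jun and Junb was not tested. The span of Junb shares a stretch of 351 bases with that of Prdx2, a peroxidase gene on the other strand. The kit does not mark strand. Overlaps here and below are of whole gene spans, introns included, and how much of them is exon was not worked out. Prdx2 had 11755 and 14644 counts in CrAT and 9476 and 16296 in MCS, against 5436 to 13815 for Junb. Reads in exons of both genes cannot be fully told apart, and their part in the level of Junb was not tested. Jun overlaps by 689 bases with the antisense RNA Junos, which had 776 and 737 counts in CrAT and 2037 and 985 in MCS. Jun itself had 6543 to 18798 counts, and the reads of this pair may not be fully told apart. Jund overlaps by 919 bases with the long noncoding gene Gm11175 on the other strand, which had 181 to 474 counts, so its counts are likewise uncertain.

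To show what the abundant members carry near their start sites, RefSeq promoter windows (build GRCm38.p6, 250 bases before to 50 bases after the start, on the strand of the gene) are given for Jun, Junb, Fos and Atf3. A window was found for 9 of the 10 genes, Fosl1 being without. Capitals mark matches, on either strand, to TGANTCA (TPA response element), TGACNTCA (cyclic AMP response element), TTACNTCA (a variant of it), TGACGT (its core), TATAAA (the TATA box) or CCAAT (a box bound by NF-Y). The core can lie within TGACNTCA or overlap TTACNTCA. The windows are chr4:95052173-95052472 (minus strand) for Jun, chr8:84978699-84978998 (minus) for Junb, chr12:85473640-85473939 (plus) for Fos and chr1:191183284-191183583 (minus) for Atf3.
Jun: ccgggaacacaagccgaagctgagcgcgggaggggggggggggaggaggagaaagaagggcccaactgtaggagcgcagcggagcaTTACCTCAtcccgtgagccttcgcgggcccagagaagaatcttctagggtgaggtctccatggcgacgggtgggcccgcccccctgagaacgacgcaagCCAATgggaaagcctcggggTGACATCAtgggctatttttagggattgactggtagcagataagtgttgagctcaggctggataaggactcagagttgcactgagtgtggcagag
Junb: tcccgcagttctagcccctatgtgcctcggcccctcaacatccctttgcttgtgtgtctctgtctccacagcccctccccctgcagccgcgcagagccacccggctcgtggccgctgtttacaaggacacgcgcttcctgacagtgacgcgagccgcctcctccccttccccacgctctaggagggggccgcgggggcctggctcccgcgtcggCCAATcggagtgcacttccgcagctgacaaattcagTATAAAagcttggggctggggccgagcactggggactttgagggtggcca
Fos: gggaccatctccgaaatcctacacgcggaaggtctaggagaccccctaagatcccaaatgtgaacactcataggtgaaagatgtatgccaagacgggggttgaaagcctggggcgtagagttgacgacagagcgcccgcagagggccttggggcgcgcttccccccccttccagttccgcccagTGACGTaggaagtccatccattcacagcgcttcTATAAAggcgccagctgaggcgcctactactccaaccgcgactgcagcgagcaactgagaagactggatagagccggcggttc
Atf3: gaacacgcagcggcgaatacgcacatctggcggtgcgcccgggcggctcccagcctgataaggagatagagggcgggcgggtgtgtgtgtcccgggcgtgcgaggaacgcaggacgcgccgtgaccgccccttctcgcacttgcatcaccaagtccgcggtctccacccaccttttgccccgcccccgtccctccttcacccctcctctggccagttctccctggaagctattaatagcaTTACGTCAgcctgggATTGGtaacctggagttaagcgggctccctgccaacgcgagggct

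In the Jun window TGACATCA began at base 206 and TTACCTCA at base 87, counted from the upstream end, with CCAAT at base 186. The Atf3 window held TTACGTCA at base 241, a match that overlaps the core ACGTCA on the other strand, and CCAAT on the other strand at base 256. Fos had TGACGT at base 185 and a TATA box at base 218. Junb had CCAAT at base 215 and TATAAA at base 251, which is at the annotated start itself, but none of the response elements searched. Among all 32851 RefSeq windows, 8.83% held TGACNTCA, 3.30% TTACNTCA, 7.51% TGACGT, 13.6% TATAAA and 37.4% CCAAT (either strand). The TPA response element was in none of the 11 windows of these genes and in 7.81% of all windows. A match is a run of letters and not a site shown to be bound. The genes with the largest gap between the groups, Jun and Junb, shared only CCAAT among these matches.

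Atf3 was higher in CrAT replicate 1 than in any other library and lowest in MCS replicate 2. It was 84.7 and 63.9 CPM with CrAT against 65.0 and 20.5 CPM with MCS. MCS replicate 1 lay within the range of the CrAT libraries, and only MCS replicate 2 stood apart. The mean was 74.3 ± 14.7 CPM (SD, n = 2) with CrAT and 42.8 ± 31.5 CPM (SD, n = 2) with MCS. The log2 fold change of Atf3 was 0.80 (SE 0.55), and it was 0.19 without MCS replicate 2 and 1.86 without MCS replicate 1. As both genes were measured in the same libraries, their ratio does not depend on how libraries are scaled. The level of Atf3 over that of Jun, per length in FPKM, was 0.442 and 0.383 in CrAT, and 0.127 and 0.0878 in MCS. The groups did not overlap, and the ratio was 3.89-fold higher in CrAT as a geometric mean. On the log2 scale the difference was 1.96, and from 1.69 to 2.23 as each library was left out. The pair was chosen after its values were seen, so the difference is given without a test. Against Junb the ratio of Atf3 was 0.397 and 0.325 in CrAT and 0.125 and 0.0541 in MCS.

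Among the other partners of Jun, Jdp2 and Batf3 were low. Jdp2, a repressor that pairs with JUN, was 5.61 and 9.43 CPM with CrAT against 4.10 and 12.9 CPM with MCS, with overlapping groups and a log2 fold change of -0.18 (SE 0.63) that turned to 0.87 without MCS replicate 2. It overlaps by 165 bases with the antisense gene Gm47863, which had 40 to 126 counts. Batf3 was not tested.

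The Fos family followed the single libraries more than the groups. Fos was 1065 and 725 CPM with CrAT against 1296 and 650.4 CPM with MCS. The highest and the lowest of the 4 were thus both from MCS. The log2 fold change of Fos was -0.12 (SE 0.43), became 0.46 when MCS replicate 1 was left out, and was 0.14 when CrAT replicate 2 was. Fosb, whose truncated form builds up with repeated stimulation of neurons, was 10.8 and 6.34 CPM with CrAT against 18.1 and 9.23 CPM with MCS. Its groups overlapped as well, with a log2 fold change of -0.67 (SE 0.51) that was -0.10 without MCS replicate 1. Fosl2, which encodes FRA2, was 5.86 and 3.85 CPM with CrAT against 6.998 and 6.88 CPM with MCS. The MCS values lay close together above both CrAT values, at a log2 fold change of -0.52 (SE 0.44). Fosl1, which encodes FRA1, was 7.41 and 1.74 CPM with CrAT against 6.96 and 1.92 CPM with MCS. Here the replicates of a group differed while the groups did not part, with a log2 fold change of 0.04 (SE 0.87). Fosl1 shares 2767 bases with Ccdc85b on the other strand, which had more counts, 1048 to 2056 against 46 to 177.

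The Jun genes made up a smaller part of the summed level in both CrAT libraries than in both MCS libraries. Summed over its 4 genes the Fos family was 445 and 308 FPKM in CrAT and 567 and 285 FPKM in MCS. Summed over its 3 genes the Jun family was 189 and 178 FPKM in CrAT and 493 and 305 FPKM in MCS. The Jun family made up 28.0% and 34.3% of the summed FPKM of all 10 genes in CrAT, and 45.1% and 50.3% in MCS. Fos over Jun was 5.09 and 3.98 in CrAT and 2.33 and 2.55 in MCS, again without overlap, for a pair also chosen after its values were seen. Fos gave 98.7% to 99.3% of the Fos family in each library. Within the Jun family Jund was 3.51% and 6.12% in CrAT and 1.40% and 4.89% in MCS.

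**Figure D3:**
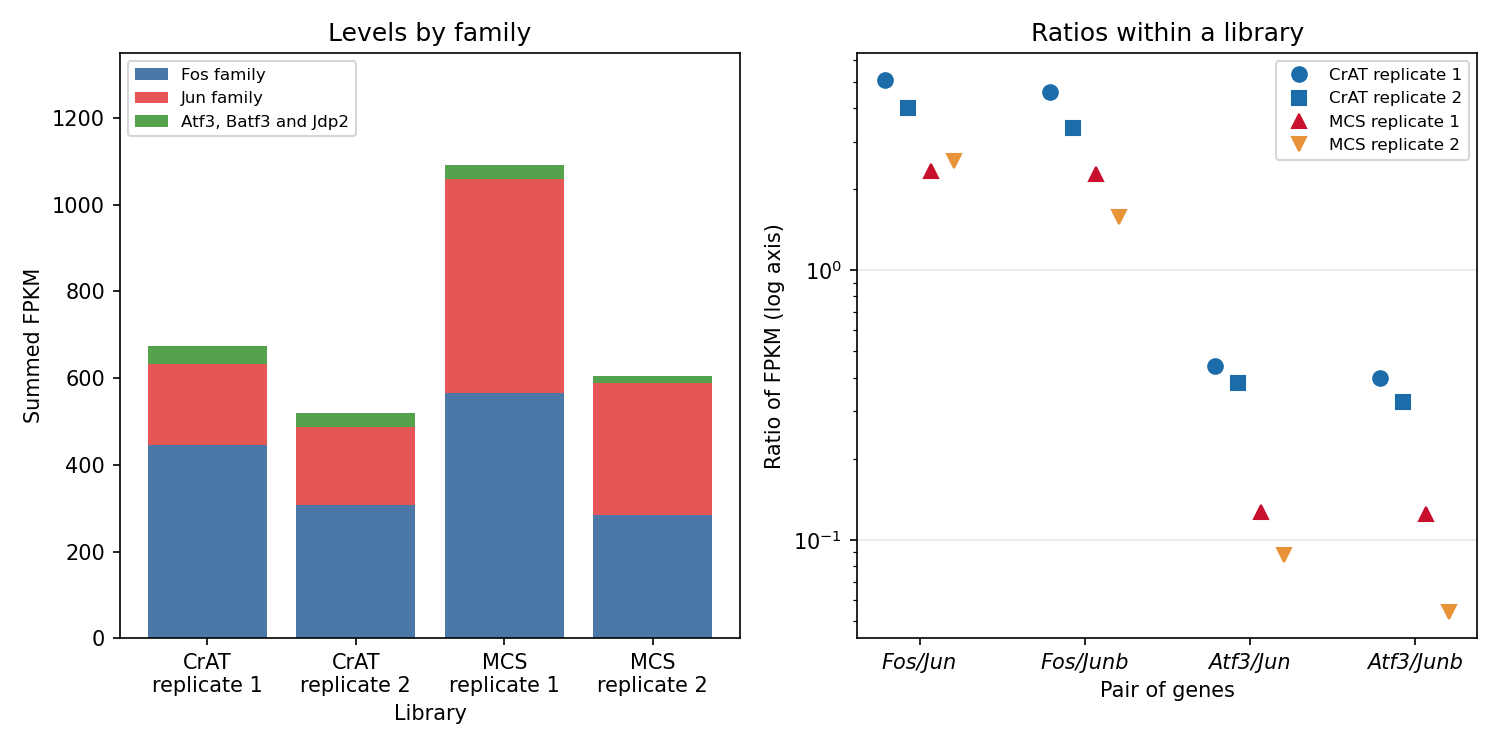
Left, summed FPKM (vertical axis, from 0) of the Fos family, the Jun family and the other 3 genes in each library. Right, ratios of FPKM between 2 genes of the same library on a log axis, with a symbol per library. The Jun family is 178 to 189 FPKM in the CrAT libraries and 305 to 493 FPKM in the MCS libraries, and Atf3 over Jun is 0.383 to 0.442 against 0.0878 to 0.127.

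MCS replicate 1 held the highest level of 5 of the 9 genes tested, Fos, Fosb, Fosl2, Jun and Junb, and 27.3% of all genes tested were highest in that library. As the choice of the genes used this library, the count is a description. Its level of Jun was 2.18-fold that of the next highest library, the widest such gap among the 9 genes. For Fosb it was 1.66-fold, for Junb 1.37-fold, for Fos 1.22-fold and for Fosl2 1.02-fold. The other 4 genes were not highest there. Atf3 stood at 65.0 CPM, close to the median of the other 3 libraries, Fosl1 was just below CrAT replicate 1, and Jund and Jdp2 were at their lowest. Summed over all 10 genes the level was 2721 CPM in MCS replicate 1, against 1285 to 1703 CPM in the other 3 libraries. The nuclear RNA Malat1 was also highest in this library, at 1278 CPM against 307 to 393 CPM. The sum over 9 nuclear retained RNAs was 1603 CPM against 507 to 705 CPM and rests on Malat1. Left out after the values were seen, it leaves a sum of 325 CPM against 200.5 to 338 CPM, with CrAT replicate 2 highest. By count, 5 of the 8 nuclear retained RNAs tested, Malat1 among them, were highest in MCS replicate 1, as were 27.3% of all genes tested. Their part in the AP-1 values was not tested.

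Each of the 9 genes tested differed between the replicate numbers in the same direction in both groups, some by little. The share of all genes that did so was not taken. Jun, Junb and Fosl2 were higher in replicate 1, by 1.15-fold, 1.08-fold and 1.52-fold in CrAT. In MCS these 3 were higher there by 2.18-fold, 1.37-fold and 1.02-fold. In both groups replicate 1 held more Fosl1, 4.27-fold in CrAT and 3.62-fold in MCS. Jund was higher in replicate 2, 1.61-fold in CrAT and 2.16-fold in MCS, and so was Jdp2, 1.68-fold and 3.14-fold. Both replicates 1 lay above both replicates 2 for 4 of the 9 genes, Fos, Fosb, Fosl1 and Atf3, against 23.5% of all genes, and below them for 2, Jund and Jdp2, against 24.1%. Rod markers were higher in replicate 1, with sums of 51858 and 27882 CPM with CrAT against 49657 and 30096 CPM with MCS. Amacrine cell markers were higher in replicate 2, with 831 and 2387 CPM with CrAT against 702 and 1505 CPM with MCS. Ganglion cell markers were higher in replicate 2 as well, with 94.6 and 207 CPM with CrAT against 72.8 and 167 CPM with MCS. The part of any of these cell types in the levels of Fosl1, Jund or Jdp2 was not tested.

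**Figure D4:**
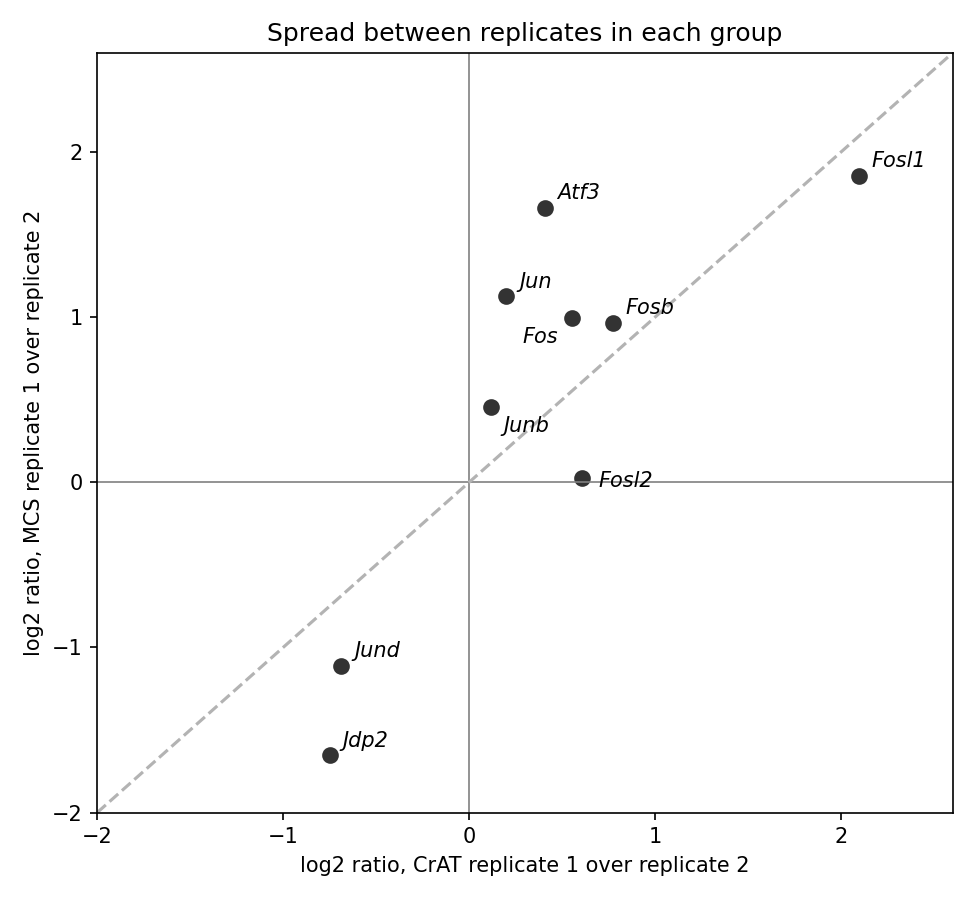
The log2 ratio of replicate 1 to replicate 2 for each gene tested in CrAT (horizontal axis) and in MCS (vertical axis), with 1 point per gene and a dashed line of equal ratios. Fosl1 lies high in both groups, Jund and Jdp2 lie low in both, and Jun and Atf3 differ far more between the MCS replicates than between the CrAT replicates.

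For each member with a mean of at least 1 log2 CPM the nearest profiles were looked up among 6348 genes with a mean of at least 5 log2 CPM, by the Euclidean distance of log2 CPM centred on the mean of the gene over the 4 libraries. With 4 libraries many genes lie close to any profile, so this is a description. Nearest to Jun were Amotl2, a regulator of the Hippo pathway, at a distance of 0.040, the antisense RNA Junos at 0.12 and the laminin gene Lamb2 at 0.19. Junos overlaps Jun and their reads may not be fully told apart, so its profile may hold reads of Jun. Amotl2 was 26.8 and 23.9 CPM with CrAT against 71.4 and 32.3 CPM with MCS. Near to Junb were Aff1 at 0.17 and the membrane metalloproteinase Mmp14 at 0.18. Fos had Trip10, Sh3bgrl and Hnrnpu at 0.062 to 0.076, Fosb had Slmap, Kmt2c and Socs3 at 0.079 to 0.14 and Fosl2 had Prdx6, Kcnh6 and Wdsub1 at 0.058 to 0.10. Fosl1 lay nearest to the rod gene Rp1 at 0.34, to Wwtr1, a coactivator of the Hippo pathway, and to Osmr, a receptor for oncostatin M, and Rp1 was 470.5 and 153 CPM with CrAT against 529.9 and 130.3 CPM with MCS. Atf3 had no profile closer than 0.27, with Pigg, Txndc16 and Prom1, a gene of photoreceptor discs, up to 0.28. Jund had E130218I03Rik, Zfp593 and 2210016L21Rik at 0.053 to 0.058, and Jdp2 had Rnf187, Mlycd and Fkbp5 at 0.070 to 0.16. Among the members themselves Jun and Junb were each nearest to the other, at 0.51, as were Jund and Jdp2, at 0.42.

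No gene listed as acting upstream of AP-1 passed the test. Of 21 listed kinases and factors all were tested, 5 higher and 16 lower in CrAT, with a median log2 fold change of -0.19 against 0.01 over all genes, and none passed in edgeR or DESeq2. Both CrAT libraries lay below both MCS ones for 7 of the 21 (16.6% of all genes) and above for 1 (15.0% of all genes). Map3k12, which encodes the kinase DLK, was 78.4 and 76.9 CPM with CrAT against 79.1 and 117 CPM with MCS. The JNK gene Mapk10, active mainly in neurons, was 131 and 142 CPM with CrAT against 85.6 and 102 CPM with MCS, and the groups did not overlap. Srf, the serum response factor that drives Fos, was 1.55 and 1.02 CPM with CrAT against 2.45 and 3.55 CPM with MCS, the other way round. These 3 were picked after their values were seen. Among the genes with the highest mean level, the JNK scaffold Mapk8ip3 and the factor Mef2d gave 0.23 (SE 0.38) and -0.08 (SE 0.31) as log2 fold changes.

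Other leucine zipper factors able to pair with AP-1 proteins were mostly lower in CrAT without passing the test. Of 23 found by a single row, 21 were tested, 4 higher and 17 lower. The median log2 fold change of -0.45 was 0.11 without MCS replicate 1, and 13 of the 21 were highest in that library, as were 27.3% of all genes. Both CrAT libraries lay below both MCS ones for 6 of the 21 (16.6% of all genes) and above for 1 (15.0% of all genes). The most abundant were Nrl, the factor that sets rod fate, Cebpd, an acute phase factor, and Atf4 of the integrated stress response. Cebpd was 215 and 164 CPM with CrAT against 417 and 274.5 CPM with MCS, an order like that of Junb, with a log2 fold change of -0.87 (SE 0.34). Nrl had -0.45 (SE 0.41) and Atf4 -0.10 (SE 0.30). Crem, which encodes repressors of the cyclic AMP response, ran the other way, at 40.1 and 39.9 CPM with CrAT against 26.9 and 22.7 CPM with MCS. It was named after its values were seen.

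The high sum of early response genes in MCS replicate 1 was known when the genes were chosen, so the values of those outside AP-1 are a description. Of 30 listed all were tested, 11 higher and 19 lower in CrAT, and 20 were highest in MCS replicate 1, as were 27.3% of all genes. The median log2 fold change of -0.24 became 0.44 without that library and -0.82 without MCS replicate 2. None passed in edgeR or DESeq2. Egr1, a zinc finger factor induced along with Fos, was 409 and 490.2 CPM with CrAT against 904 and 399 CPM with MCS. The most abundant, the matricellular gene Ccn1, was 641 and 353 CPM with CrAT against 886 and 343.5 CPM with MCS, and Btg2, an inhibitor of cell growth, was 486 and 329.7 CPM with CrAT against 649 and 262 CPM with MCS. The groups overlapped for Egr1, Ccn1 and Btg2. Over the list the groups parted with CrAT lower for 7 of the 30 genes, against 16.6% of all genes. They parted with CrAT higher for 0 of the 30, against 15.0% of all genes. The heat shock genes were split. The inducible chaperone genes Hspa1a and Hspa1b were highest in MCS replicate 1, at 64.0 CPM against 35.5 to 36.9 CPM and at 79.9 CPM against 32.2 to 37.0 CPM, and so was their cofactor Bag3, at 30.2 CPM against 8.90 to 24.6 CPM. These 3 were named after their values were seen. They were the only ones of the 12 listed that were highest in that library, as were 27.3% of all genes. The sum over the list, made up mostly of Hspa8, Hsp90aa1 and Hsp90ab1, was lowest there, at 3809 CPM against 4440 to 5155 CPM, with 7 of 12 higher in CrAT, a median log2 fold change of 0.16 and none past the threshold. The groups parted with CrAT higher for 6 of the 12 genes, against 15.0% of all genes. They parted with CrAT lower for 0 of the 12, against 16.6% of all genes. Of the most abundant, Hspa8 had a log2 fold change of 0.41 (SE 0.32), Hsp90ab1 0.14 (SE 0.37) and Hsp90aa1 -0.01 (SE 0.31). The nuclear retained RNAs had a median of -0.26 over the 8 tested, 3 higher and 5 lower, and 0.44 without MCS replicate 1. Among them Malat1 had -1.06 (SE 0.64), Peg13 0.44 (SE 0.29) and Snhg11 0.11 (SE 0.58).

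Genes known as AP-1 targets lay on both sides of 0. Of 20 listed, 16 were tested, 7 higher and 9 lower in CrAT, with a median log2 fold change of -0.05 that was -0.53 without CrAT replicate 1, and none passed. The metallothioneins Mt1 and Mt2, which bind zinc, gave -0.28 (SE 0.46) and -0.15 (SE 0.47) as log2 fold changes. Vim, the intermediate filament vimentin, was 249 and 208 CPM with CrAT against 336.5 and 282 CPM with MCS, and it is also a Mueller glia marker of the list above. Genes of the axon injury response linked to Jun and Atf3 were tested for 18 of 19 found by a single row, 12 higher and 6 lower, with a median of 0.22 that was -0.59 without CrAT replicate 2. In edgeR none passed. DESeq2 called 2, the neuropeptides Gal (adjusted p = 0.0418) and Vip (adjusted p = 0.00159), both highest in CrAT replicate 2, against 0.275% of all genes called. Amacrine cell markers also had their highest sum, 2387 CPM, in that library, and the log2 fold change was above 0 for all 9 tested (median 0.40, none past the threshold). Ganglion cell markers had their highest sum in CrAT replicate 2 too, at 207 CPM against 72.8 to 167 CPM. Of 13 tested, 7 had a log2 fold change above 0 and 6 below (median 0.20, none past the threshold). The part of either cell type in the levels of Gal and Vip was not tested. Vip had 0 and 3 counts in the MCS libraries. Sprr1a, a gene of regenerating neurons, was 11.7 and 12.1 CPM with CrAT against 2.73 and 8.26 CPM with MCS, with no overlap between the groups and a log2 fold change of 1.11 (SE 0.59), and it was picked after its values were seen. The most abundant, Tubb3, Cd44 and Gap43, gave 0.22 (SE 0.52), -0.02 (SE 0.69) and 0.22 (SE 0.46) as log2 fold changes.

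**Figure D5:**
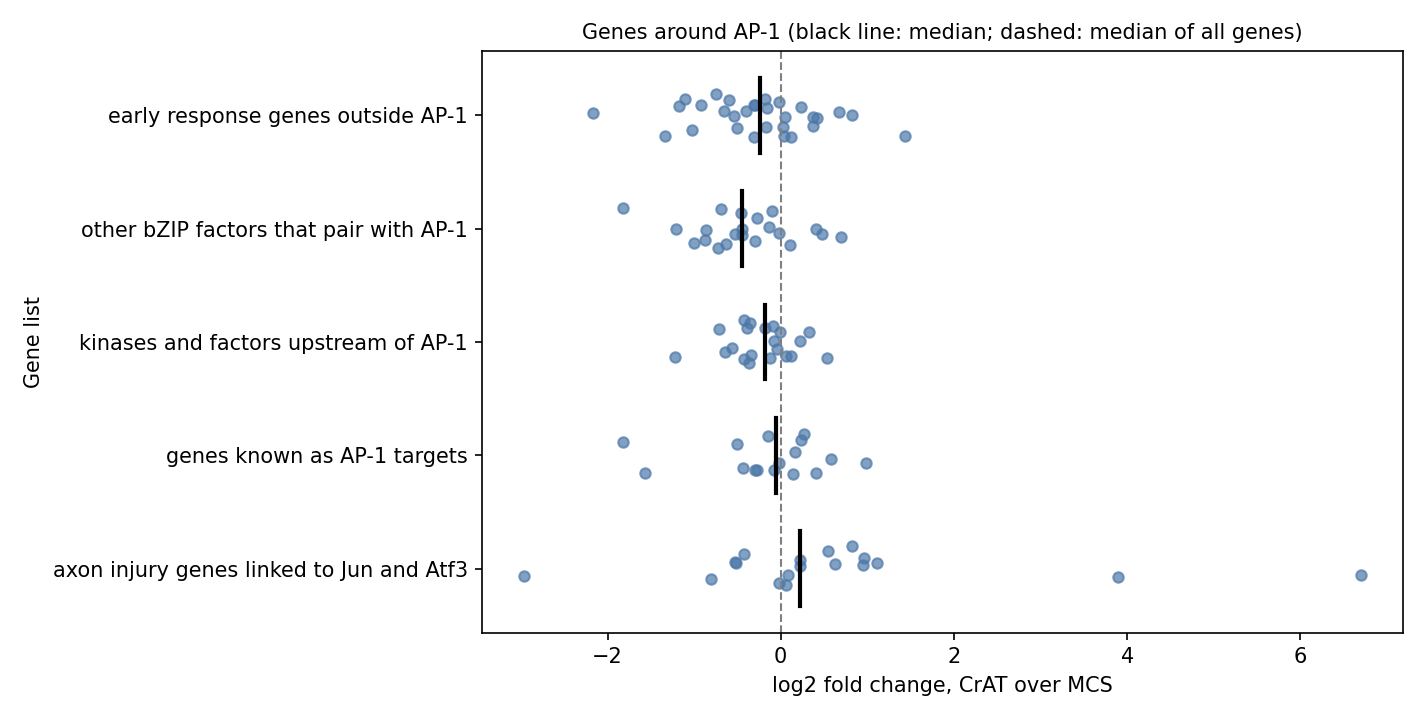
The log2 fold change, CrAT over MCS (horizontal axis), of every gene tested in 5 lists of genes around AP-1 (vertical axis), with 1 point per gene, a black line at the median of the list and a dashed line at the median of all genes tested. Medians run from -0.45 for other leucine zipper (bZIP) factors to 0.22 for axon injury genes. The 2 points farthest right are Gal and Vip, and the value of Vip depends on the 0 counts in MCS replicate 1.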

How the data were processed

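Sorted retinal cells were profiled by RNA sequencing in 4 libraries. SMART-seq v4 libraries were made from RNA of a Qiagen column kit, per the labels' protocols, and they do not mark strand. The aligner STAR (2.7.2b) and, as builds, both mm10 and GRCm38.p6 appear in the submitters' processing notes, while counter settings and annotation are not stated there. The authors deposited counts per gene and FPKM on the summed exon length. Counts recomputed from FPKM were often fractional (44.2% to 47.1% of values under 100, tolerance 0.02), which makes the deposited counts rounded estimates. Start and end were identical to GRCm38 for 1402 of 51898 shared gene IDs, and the table's coordinates are therefore not printed. There were 4 columns of other samples, which were not used, and 0 mitochondrial genes.

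Group and replicate come from the sample titles. Genes were filtered with filterByExpr and scaled by TMM (factors 0.970 to 1.02), and tested with edgeR 4.0.16 (quasi-likelihood, robust, 2 residual degrees of freedom, two-sided, Benjamini-Hochberg over all genes, threshold 0.05) in R 4.3.3. The procedure was tested on simulated data. Alternatives were DESeq2 1.42.0, its size factors, library totals, no filter, limma 3.58.1 on log2(FPKM + 0.1), leaving out each library and the replicate number as a block. The genes and lists were chosen with earlier results of these data known. Named by rule besides the 10 genes are the 3 most abundant of each pathway list and the 3 nearest profiles of each gene, and genes outside the rule are said to be so. Values of some genes taken by the rule are left out here. Ddit3 has more than 1 row and was left out.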

Additional observations from a re-analysis of the deposited data

How the results depend on the processing

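None of the 10 genes passed the threshold under any alternative run. Over all genes edgeR called 0, as it did with each library left out, against 54 with DESeq2 and 2 (H2-Aa and Apol6, named after their values were seen) without a filter on low counts. Jun, Junb, Fosb and Fosl2 were lower and Atf3 higher in CrAT under every alternative run, but Jun was -0.38 without MCS replicate 1 and Atf3 0.19 without MCS replicate 2. Leaving out each library in turn, Fos ran from -0.53 to 0.46, Fosl1 from -1.35 to 1.25, Jund from -0.71 to 0.40 and Jdp2 from -0.78 to 0.87 on the log2 scale, so these 4 have no direction here. Fosl1, 0.04 in the edgeR test, was -0.018 with library totals and -0.071 with limma on FPKM. Other scalings moved the median of all genes by less than 0.1.

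With the replicate number as a block the count of genes called was 0, Fosl1 was -0.020, Jun -0.95, Junb -1.12 and Atf3 1.00 (log2), and none passed. The replicates share only a number, and the deviations of the same-numbered libraries correlated at 0.389 across genes, which are not independent replicates.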
